A study of Mus musculus with 12 samples.

Results

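The constitutive proteasome genes were followed in RAW264.7, an immortalized monocyte/macrophage line of the mouse that the labels assign to strain Balb/c. The members are the genes of the deposited table whose symbol begins with Psma, Psmb, Psmc or Psmd and a number, without the immunoproteasome genes Psmb8, Psmb9 and Psmb10, which gave 37 of 23764 genes. Of these, 16 carry the Psma and Psmb names of the 20S core and 21 the Psmc and Psmd names of the 19S cap. All cells had received RANKL, a cytokine under which macrophage precursors become bone-resorbing osteoclasts. In 3 groups they also received culture supernatant of the gut bacterium L. reuteri (treatment), with RNA taken at day 1, day 3 or day 5, and in 3 groups they received vehicle with RNA taken on the same days. There was no group without RANKL, and the model is 1 cell line. Each of the 6 groups held 2 libraries, 12 in all, and nothing in the labels says whether these came from separate cultures, so p-values reflect only the spread among the libraries at hand, which may be technical.

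The proteasome is the protease that degrades proteins tagged with ubiquitin. Its 20S core is a barrel of stacked rings, with outer α rings (Psma genes) that gate the entry and inner β rings (Psmb genes) that hold the proteolytic sites. The 19S cap binds ubiquitin chains, removes them and feeds the unfolded substrate into the core through a ring of ATPases (Psmc genes). Most of its other subunits carry Psmd names. In macrophages, interferon and inflammatory signals can replace the 3 catalytic β subunits by Psmb8, Psmb9 and Psmb10, which gives the immunoproteasome.

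The label holds for most of the members but not for each of them. Psma8, a testis form of an α subunit, had 44.1 to 246.5 normalized counts over the 12 libraries. Psmb11, a catalytic subunit of the thymus, was listed at 0.9 and 1.2 normalized counts in 1 library each and at 0 in the other 10 libraries, and it was the one member that failed the filter on low values. Psmc3ip encodes a recombination factor and no proteasome subunit, although its name matches. Psmd5, Psmd9 and Psmd10 encode chaperones that help to assemble the base of the cap and leave it again. The remaining members are 7 α, 7 β, 6 ATPase and 11 further cap genes, and all statements below on tested members refer to the 36 that passed the filter, 15 with 20S and 21 with 19S names.

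Promoters were looked at for the element through which the transcription factors NRF1 and NRF2 (Nfe2l1 and Nfe2l2) are known to act on proteasome genes. RefSeq promoter windows (build GRCm38.p6, 250 bases before to 50 after the transcript start) were found for 30 of the 37 members. The core TGACNNNGC, or its reverse complement GCNNNGTCA, lay in 5 of 30 members (Psmb5, Psmb6, Psmc6, Psmd9 and Psmd12), which is 16.7%, against 16.6% of 11665 protein-coding genes of the table with such a window. A CCAAT box (CCAAT or ATTGG) lay in 13 of 30 members, 43.3%, against 42.6%, and no member held both motifs. The shares among the members were near those of all such genes, and a match or its absence says nothing of binding. The 250 bases before the start are printed for 4 genes that the results turn on, 5′ to 3′ along the gene's own strand, with TGACNNNGC matches in capitals. Psmb6 is the β gene that was higher under treatment at day 1, with its match beginning 9 bases before the start. Psmb5 is a catalytic β gene with a match beginning 47 bases before the start. Psma5 and Psmd11 are the 20S and the 19S gene with the largest falls in vehicle cells at day 5, and neither held a match.
Psmb6, chr11:70525107-70525356, plus strand: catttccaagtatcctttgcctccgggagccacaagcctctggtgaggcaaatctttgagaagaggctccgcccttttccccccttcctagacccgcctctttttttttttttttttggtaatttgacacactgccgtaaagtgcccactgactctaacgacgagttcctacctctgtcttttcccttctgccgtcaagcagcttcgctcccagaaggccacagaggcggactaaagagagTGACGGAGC
Psmb5, chr14:54617996-54618245, minus strand: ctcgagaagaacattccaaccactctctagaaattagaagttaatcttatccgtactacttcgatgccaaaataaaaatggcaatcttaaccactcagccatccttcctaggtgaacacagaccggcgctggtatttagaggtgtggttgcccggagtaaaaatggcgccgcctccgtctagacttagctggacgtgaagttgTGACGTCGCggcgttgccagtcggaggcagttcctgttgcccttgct
Psma5, chr3:108256676-108256925, plus strand: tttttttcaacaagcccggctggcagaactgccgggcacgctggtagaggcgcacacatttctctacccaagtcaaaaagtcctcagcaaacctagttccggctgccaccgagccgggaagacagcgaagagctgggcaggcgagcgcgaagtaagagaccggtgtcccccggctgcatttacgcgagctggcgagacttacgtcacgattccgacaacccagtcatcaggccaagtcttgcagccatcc
Psmd11, chr11:80428365-80428614, plus strand: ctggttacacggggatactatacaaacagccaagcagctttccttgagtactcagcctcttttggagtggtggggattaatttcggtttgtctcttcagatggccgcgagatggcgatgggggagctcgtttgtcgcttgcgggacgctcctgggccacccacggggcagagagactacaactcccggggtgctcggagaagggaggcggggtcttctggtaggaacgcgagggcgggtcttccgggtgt

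The libraries differed in composition. Nuclear protein-coding genes took 38.1% to 48.8% of the reads of replicate 2 at days 3 and 5 of either arm, and 85.2% to 87.6% of those of the other 8 libraries. These 4 low-mRNA libraries also held 8.15% to 14.0% of reads on the nuclear RNA Malat1 (0.218% to 0.489% in the others), 25.7% to 30.6% on mitochondrial genes (3.64% to 5.97%), and 8071160 to 10724569 reads in all (13812078 to 16781080). Values are given as normalized counts, which the authors had scaled to 1 common total, since they summed to 12709500 in every library. All 8 macrophage markers stood above 10 normalized counts in every library, and markers of T, B, endothelial, epithelial and fibroblast cells summed to at most 15.5 per list. Calcr, the calcitonin receptor of osteoclasts, had at most 15.5 normalized counts in any library. Other osteoclast markers differed between libraries of 1 group. Acp5, the osteoclast phosphatase, had 21.1 and 771.5 normalized counts in the treated libraries of day 5, replicates 1 and 2, and 35.9 and 1230.6 in the vehicle ones, against 741.9 and 814.1 in the treated and 1068.1 and 674.7 in the vehicle libraries of day 3.

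With all 12 libraries in limma, 0 of 36 tested members passed a Benjamini-Hochberg adjusted p of 0.05 in any of 5 comparisons (treatment at day 1, 3 and 5, and vehicle day 3 and day 5 against day 1), nor did any of the 14715 genes tested, so that the background was 0%. No member had an unadjusted p under 0.05 there, and limma-voom on the 12 libraries also called 0 members. The members are therefore described from the same model on the 8 libraries of ordinary composition, and "rose" and "fell" below refer to an adjusted p under 0.05 in it. That fit takes its spread from the 2 groups of day 1, with 2 residual degrees of freedom. It assumes that the single libraries of days 3 and 5 would vary like the day 1 libraries.

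Levels at day 1 in vehicle differed widely between the members. Per kilobase of exon, Psma5 stood highest at 1908 normalized counts, followed by Psma6 at 1663 and Psmd2, the scaffold that receives ubiquitin shuttles, at 1182. The catalytic genes Psmb5, Psmb7 and Psmb6 stood at 788.2, 679.8 and 603.7 per kilobase. The lowest of the tested members were Psmd9 at 32.5, Psma8 at 85.6 and Psmd5 at 108.8 per kilobase, of which none is a constitutive structural subunit. The lowest structural subunit was Psmd3 at 209.1 per kilobase. Neighbours in this order, such as Psmb6 and Psmd12 (603.8), are not shown to differ.

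**Figure D1:**
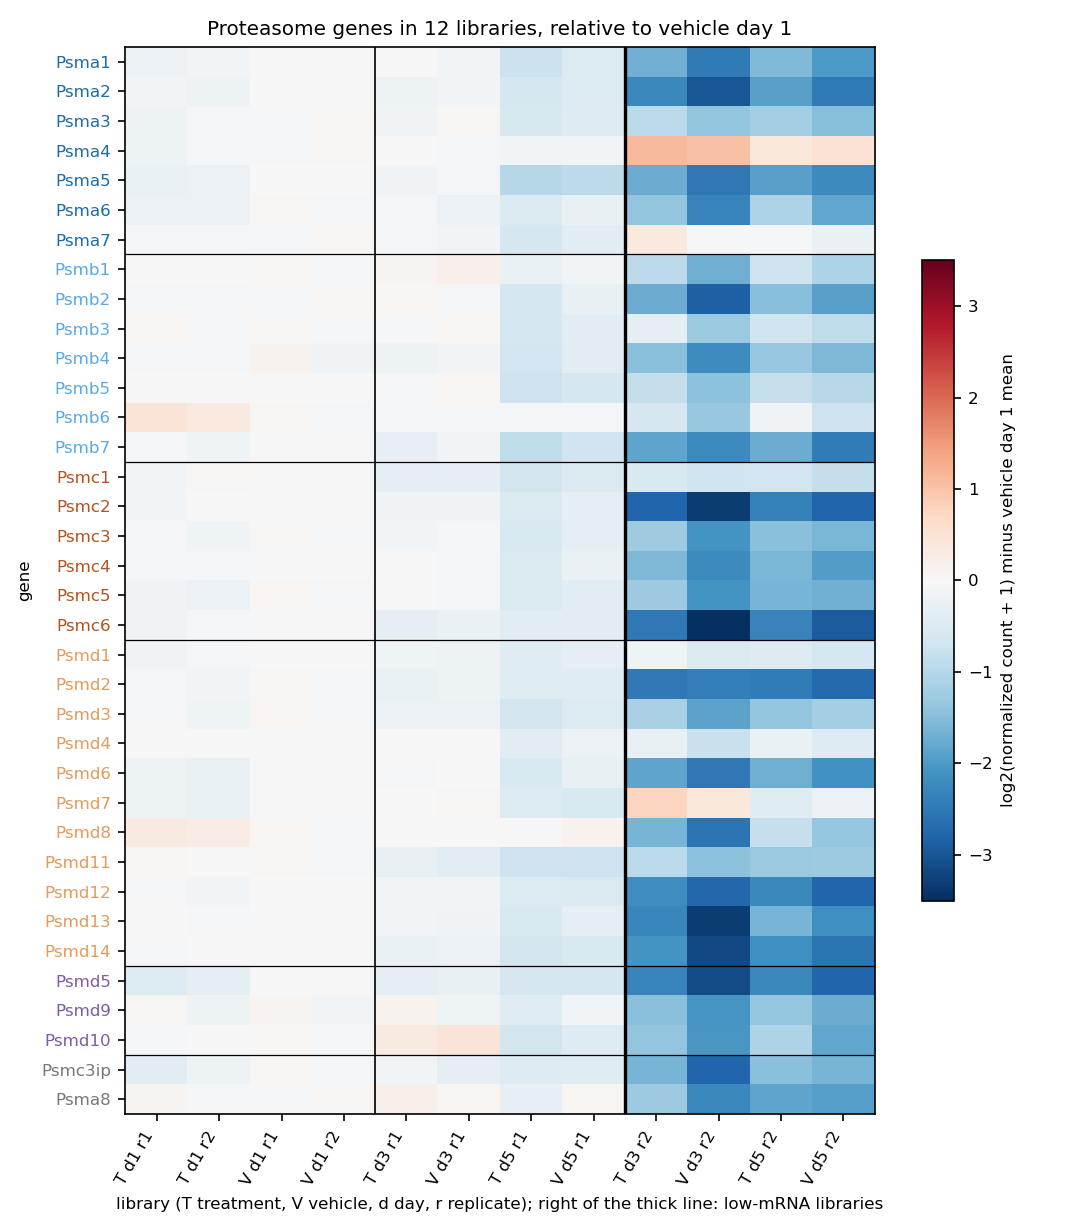
Each cell is log2(normalized count + 1) of 1 gene (rows, coloured by role) in 1 library (columns) minus the mean of the 2 vehicle libraries of day 1, for the 36 tested members. The libraries of days 1 and 3 left of the thick line are pale, the number-1 libraries of day 5 are lower in most rows, and the 4 low-mRNA libraries on the right are lower in most rows but higher for Psma4.

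The largest change of the set in libraries of ordinary composition was the fall at day 5. In vehicle cells 28 of 36 tested members fell at day 5 against day 1 and none rose. Over all 14715 genes tested 29.4% were called in this comparison, 15.0% lower and 14.4% higher. The falls covered 10 of 15 genes with 20S names and 18 of 21 with 19S names. The median log2 difference was -0.38 for the 20S and -0.38 for the 19S genes, against -0.00 over all genes tested. In bulk RNA, fewer cells of a type and less RNA per cell cannot be told apart.

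In the α ring 6 of 7 genes fell. Psma5 had 1339.8 normalized counts in the vehicle library of day 5, against 2491.0 and 2550.2 in those of day 1. The difference, -0.91 log2 units (SE 0.05, limma adjusted p = 0.000986), was the largest fall among the members. Psma2 fell by 0.47 (SE 0.06, adjusted p = 0.00629), with 1187.0 normalized counts at day 5 and 1674.5 and 1615.8 at day 1. Psma4 did not pass, with 1357.2 at day 5 and 1424.6 and 1486.5 at day 1. An exon of Psma5 and one of Psma4 overlap a gene on the opposite strand, and since no strand setting is stated the reads of such pairs cannot be told apart.

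In the β ring 4 of 7 genes fell, among them 2 of the 3 catalytic ones. Psmb7, the subunit with trypsin-like activity, had 1440.1 normalized counts at day 5 and 2351.6 and 2299.8 at day 1 (log2 difference -0.69, SE 0.06, limma adjusted p = 0.00214). Psmb7 overlaps Nek6 on the opposite strand. Psmb5, the chymotrypsin-like subunit and the main target of proteasome inhibitors, had 473.0 at day 5 and 718.7 and 698.4 at day 1 (log2 difference -0.58, SE 0.06, adjusted p = 0.00384). Psmb6, the caspase-like subunit, did not pass, with 1075.7 at day 5 and 1162.6 and 1097.8 at day 1 (log2 difference -0.07, SE 0.07, adjusted p = 0.520). Psmb4 differed by -0.38 without passing (adjusted p = 0.0577).

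All 6 ATPase genes of the cap fell, by 0.23 log2 units for Psmc4 to 0.50 for Psmc1. Psmc4 had 869.6 normalized counts at day 5 and 1020.2 and 1021.5 at day 1 (SE 0.06, limma adjusted p = 0.0327). Of the 11 non-ATPase genes 10 fell. Psmd11, a lid subunit, had 1437.3 at day 5 and 2440.2 and 2276.4 at day 1 (log2 difference -0.71, SE 0.06, adjusted p = 0.00234). Psmd14, the enzyme that cuts the ubiquitin chain off the substrate, had 1316.8 at day 5 and 1905.5 and 1936.2 at day 1 (log2 difference -0.54, SE 0.05, adjusted p = 0.00309).

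Psmd7, the catalytically inactive partner of Psmd14, and the lid gene Psmd12 fell by 0.52 and 0.50 log2 units. The ubiquitin receptor Psmd4 fell least, by 0.20 (SE 0.05, limma adjusted p = 0.0370), with 1457.6 normalized counts at day 5 and 1676.1 and 1674.1 at day 1. The exception was the lid gene Psmd8, with 2251.7 at day 5 and 2160.0 and 1977.5 at day 1 (log2 difference 0.12, not passed). Among the base chaperones Psmd5 and Psmd10 fell by 0.60 and 0.45 and Psmd9 differed by -0.10 without passing. Psma8 and Psmc3ip, which are not part of the constitutive particle, did not pass either, at 0.06 and -0.42.

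The count of falls depended on which libraries were fitted. The shares of all genes called under the settings below are not given, so a loss particular to the members is not shown. Without vehicle replicate 1 of day 1 the count of members was 5, and without vehicle replicate 2 it was 4. With all 12 libraries and a term for the low-mRNA libraries by day it was 2, and with such a term and equal totals over nuclear protein-coding genes it was 12, each of them a fall. In the low-mRNA library of day 5 in vehicle 35 of 36 members were lower than at day 1, with a median of -1.72, where 77.3% of all genes tested were lower and their median was -1.23. There Psma5 had 541.1, Psmb7 423.9, Psmb5 361.7, Psmd11 979.1 and Psmd14 323.6 normalized counts, each below both libraries of day 1.

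**Figure D2:**
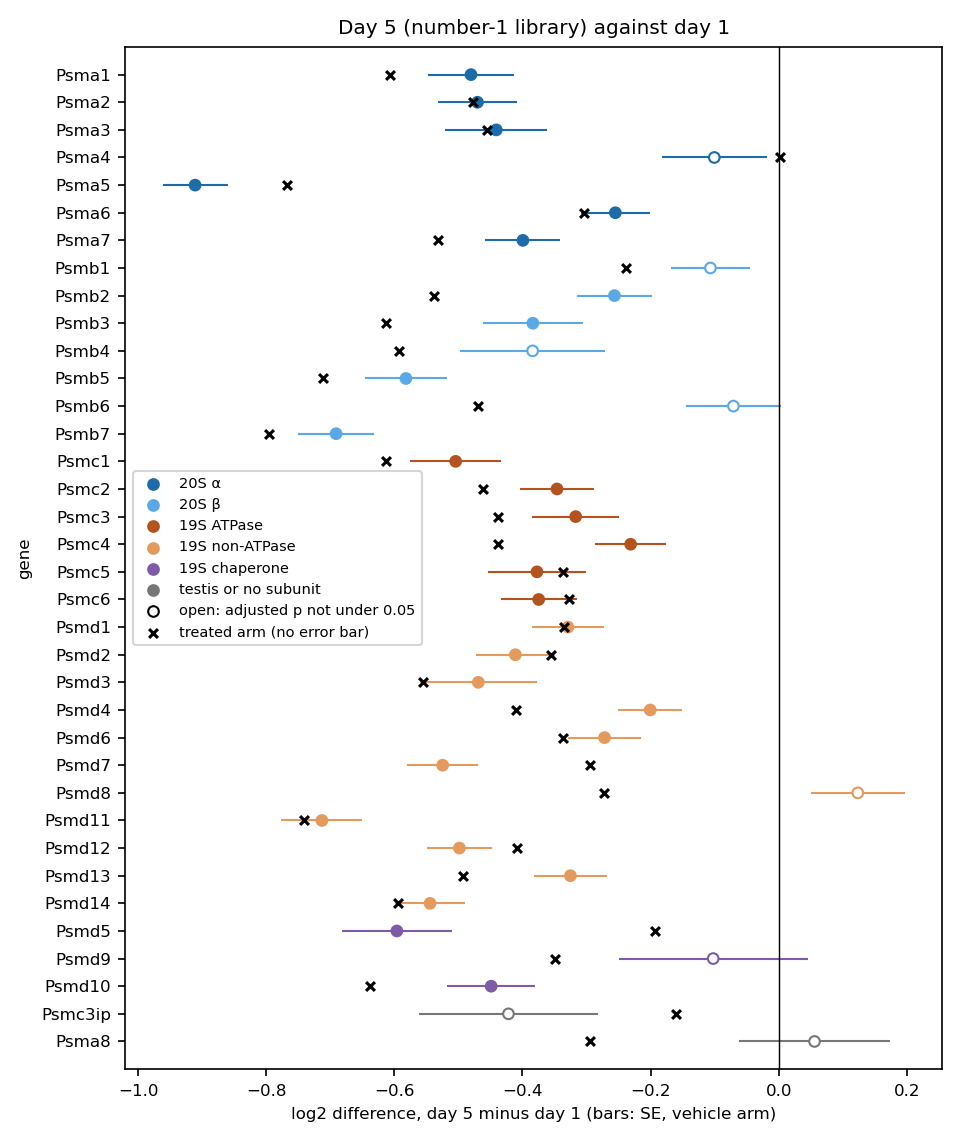
Circles give the log2 difference of each of the 36 tested members between the number-1 vehicle library of day 5 and the day 1 vehicle libraries, with bars for the standard error of the 8-library fit and filled circles for an adjusted p under 0.05. Crosses give the same difference in the treated arm, without error. Most points of both arms lie between -0.2 and -0.8, and Psma4 and Psmd8 lie near 0 in vehicle.

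In the treated arm the number-1 library of day 5 is described without a test. Of 36 tested members 35 were lower than the treated mean of day 1, with medians of -0.53 for 20S and -0.41 for 19S genes against -0.05 over all genes tested. Psmb7 had 1249.7 normalized counts at day 5 and 2232.5 and 2110.5 at day 1 in treated cells, a log2 difference of -0.80, the lowest of the arm. Psma5 had 1272.7 at day 5 and 2161.2 and 2172.1 at day 1 (-0.77). Psmb6 had 1079.1 at day 5 and 1555.4 and 1437.2 at day 1 (-0.47). Psma4 alone was not lower, with 1352.5 at day 5 and 1278.7 and 1427.0 at day 1.

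Day 5 was also set against day 3 without a test. Between number-1 libraries, all 36 tested members were lower at day 5 than at day 3 in treated cells (median -0.46, all genes -0.14) and 34 of 36 in vehicle cells (median -0.28, all genes -0.05). The same step in the low-mRNA libraries had a median of 0.05 in treated cells, with 20 of 36 members higher, and of 0.39 in vehicle cells, with 27 of 36 higher. The number-1 libraries of day 5 are also those in which Acp5 was lowest after day 1. All 8 macrophage marker genes were higher in vehicle at day 5 than at day 1 in the 8-library fit, by 0.18 log2 units (Spi1) to 2.00 (Fcgr3). This did not hold with the low-mRNA library included. In the 12-library fit the differences were -0.80 (Adgre1), -0.36 (Ptprc), -0.27 (Csf1r), -0.05 (Cd68), -0.03 (Spi1), 0.05 (Itgam), 0.46 (Lyz2) and 1.37 (Fcgr3). Of 7 osteoclast markers tested, 5 were higher in the 8-library fit of the same comparison and 2 lower. The differences were 2.07 (Mmp9), 1.47 (Itgb3, SE 1.06), 1.44 (Atp6v0d2), 1.13 (Acp5), 0.81 (Ctsk), -0.84 (Dcstamp) and -1.88 (Ocstamp). The part of either list of markers in the result was not tested.

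At day 3 few members passed in vehicle against day 1. Of 36 tested members 1 rose and 2 fell, while 19.7% of all genes tested were called (9.69% higher, 10.0% lower). Psmd10, also known as the oncoprotein gankyrin, had 1422.1 normalized counts at day 3 and 1066.4 and 995.5 at day 1 (log2 difference 0.46, SE 0.07, limma adjusted p = 0.0113). Psmd11 had 1797.9 at day 3 and 2440.2 and 2276.4 at day 1 (-0.39, SE 0.06, adjusted p = 0.0144). The ATPase gene Psmc1 had 1753.4 at day 3 and 2167.6 and 2229.8 at day 1 (-0.33, SE 0.07, adjusted p = 0.0337).

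Psmd10 was thus above both day 1 libraries at day 3 and below both at day 5, with 754.5 normalized counts. Among the genes named in every comparison, Psmd14 differed by -0.21 at day 3 (adjusted p = 0.0524), Psmb7 by -0.10, Psmb5 by 0.06, Psmc4 by -0.05, Psmb6 by -0.04 and Psmd4 by -0.00, and none passed. Without either vehicle library of day 1 the count of called members at day 3 was 0. Without treated replicate 1 or replicate 2 of day 1 it was 1. The shares of all genes called in these fits are not given. In the vehicle low-mRNA library of day 3 the values were 249.9 for Psmd10, 877.5 for Psmd11 and 1362.5 for Psmc1, all below day 1.

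Treatment at day 1 moved few of the members. Of 36 tested members 1 rose and 2 fell, while 5.74% of all genes tested were called (3.12% higher, 2.62% lower). The median log2 difference was -0.07 for 20S and -0.08 for 19S genes, against -0.04 over all genes. In sign, 30 of 36 were lower under treatment and 6 higher. The lower ones included 7 of 7 α genes and 6 of 6 ATPase genes. The share of all genes that were lower is not given. Their median was below 0 too, so these signs alone do not set the members apart.

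Psmb6 was the member that rose. It had 1555.4 and 1437.2 normalized counts in treated cells and 1162.6 and 1097.8 in vehicle cells at day 1. The 2 arms did not overlap, at 1496 ± 83.5 under treatment and 1130 ± 45.8 in vehicle (SD, n = 2), which is 0.40 log2 units apart (SE 0.06, limma adjusted p = 0.0316). The other catalytic genes differed by -0.02 (Psmb5) and -0.10 (Psmb7) and did not pass.

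Psmd8 stood apart in the same direction without passing, with 2573.7 and 2451.9 normalized counts in treated and 2160.0 and 1977.5 in vehicle cells (log2 difference 0.28, SE 0.06, adjusted p = 0.0640). Psmd5, the base chaperone, fell, with 567.2 and 632.2 in treated and 789.2 and 783.6 in vehicle cells (-0.39, SE 0.07, adjusted p = 0.0445). Psma5 fell as well, with 2161.2 and 2172.1 in treated and 2491.0 and 2550.2 in vehicle cells (-0.22, SE 0.04, adjusted p = 0.04999). Psmc4, Psmd4 and Psmd14 differed by -0.07, 0.00 and -0.05. The shares of all genes called under the settings that follow are not given. Leaving out any of the 4 day 1 libraries left 0 members called, and limma-voom on the 8 libraries called 7.

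**Figure D3:**
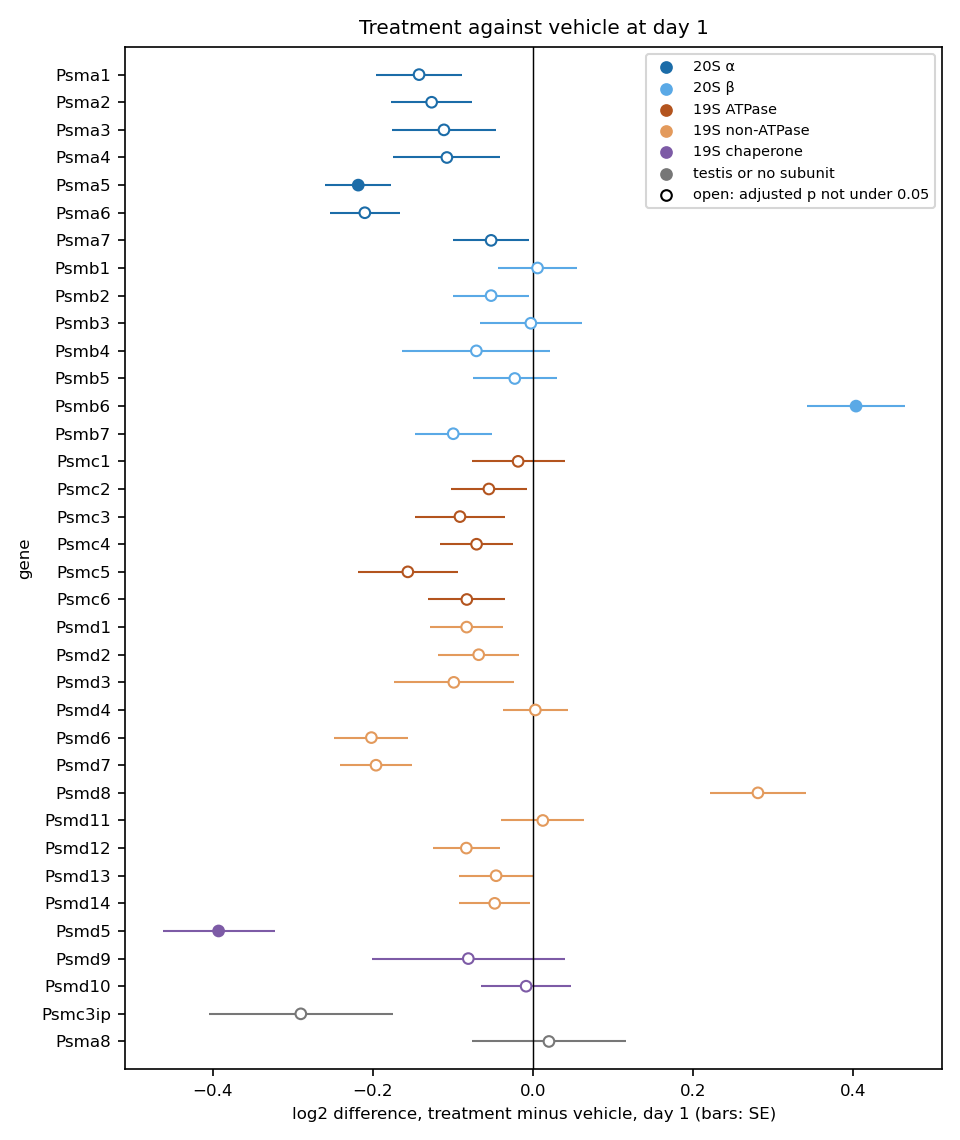
The log2 difference of treatment minus vehicle at day 1 is plotted for each of the 36 tested members, with bars for the standard error of the 8-library fit and filled circles for an adjusted p under 0.05. Psmb6 (0.40) is the filled point on the right, Psmd5 (-0.39) and Psma5 (-0.22) are the filled points on the left, and most other genes lie slightly below 0.

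At day 3 no member was called for treatment (0 of 36), 0.116% of all genes tested were called, and limma-voom on the 8 libraries called 0 members as well. Psmb6 had 1091.7 normalized counts in the treated and 1096.3 in the vehicle library of number 1, and 755.8 and 454.2 in the low-mRNA pair. Differences in the number-1 pair ran between -0.17 (Psmb7) and 0.26 (Psmd9), with 14 members higher and 22 lower. Psma3 and Psmd10 differed by -0.17 and -0.15, Psmc3ip and Psma6 by 0.23 and 0.16. Psmb5 differed by -0.14, Psmc4 by 0.06, Psmd4 by -0.02 and Psmd14 by -0.03.

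In the low-mRNA pair of day 3, by contrast, 35 of 36 tested members were higher under treatment. The median there was 0.75 for 20S and 0.65 for 19S genes, against 0.46 over all genes, of which 21.0% were lower. Composition differed in that pair too, since nuclear protein-coding genes held 47.0% of reads in the treated and 38.1% in the vehicle library. Its part in the result was not tested.

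At day 5 no member was called for treatment either (0 of 36, and 1 by limma-voom), and 5.81% of all genes tested were called (2.54% higher, 3.27% lower). In the number-1 pair 32 of 36 members were lower under treatment, with medians of -0.19 for 20S and -0.12 for 19S genes, while 63.4% of all genes were lower with a median of -0.09. In the low-mRNA pair 32 of 36 were higher, with medians of 0.31 and 0.37, against 0.23 over all genes. Most members thus had opposite signs in the 2 pairs of day 5.

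Psmb2, a β subunit without a proteolytic site, had 755.2 normalized counts in the treated and 952.4 in the vehicle library of number 1 (-0.33, SE 0.07, limma adjusted p = 0.0550). In the low-mRNA pair it had 407.7 in the treated and 305.2 in the vehicle library. Psmc4 differed by -0.28 (adjusted p = 0.0709), with 717.5 and 869.6 in treated and vehicle, and the low-mRNA pair had 338.9 and 261.4. Psmb7, Psmd4, Psmb5 and Psmd14 differed by -0.20, -0.21, -0.15 and -0.10 and Psmb6 by 0.00 in the number-1 pair. Psma8 and Psmd9 stood at -0.33 each, and the highest were Psmd7, Psmd5 and Psmd12 at 0.03, 0.01 and 0.01.

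Whether the treatment effect differed between days was also tested in the 8-library fit. No member passed for day 3 minus day 1 (0 of 36, background 0%) or for day 5 minus day 1 (0 of 36, background 0.510%). On the same libraries limma-voom called 0 and 1. For Psmb6 the effect at day 3 minus that at day 1 was -0.41 log2 units (SE 0.11, limma adjusted p = 0.270), and at day 5 minus day 1 it was -0.40 (SE 0.11, adjusted p = 0.170). For Psmd5 the difference was 0.30 at day 3 (adjusted p = 0.396) and 0.40 at day 5 (adjusted p = 0.199).

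The balance of core and cap was compared by summing normalized counts over the 15 genes with 20S and the 21 with 19S names. At day 1 the 20S sum was 21998 and 22015 in treated cells and 23389 and 23007 in vehicle cells, and the 19S sum was 33293 and 33318 in treated and 34976 and 34117 in vehicle cells. The ratio of 20S to 19S was 0.661 in both treated libraries and 0.669 and 0.674 in the vehicle libraries. In the number-1 libraries it was 0.699 in treated and 0.707 in vehicle cells at day 3, and 0.629 in treated and 0.658 in vehicle cells at day 5. In the low-mRNA libraries it was 0.833 in treated and 0.810 in vehicle cells at day 3, and 0.838 and 0.792 at day 5. The ratio was thus higher in each of the 4 low-mRNA libraries than in every other library, in both arms. The sums weigh genes by their counts, and Psma4, described below, was higher in these libraries while most members were lower. The ratio without Psma4 was not computed, so the higher ratio is not shown for the 20S genes as a set. In vehicle replicates 2 and 1 of day 3 the β genes summed to 2663 and 9691, and the 19S genes to 11515 and 31720. Relative to 19S, the β sum was thus lower in replicate 2 there. At day 5 in vehicle it was higher, with 3706 and 7623 for β and 12237 and 26649 for 19S genes.

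The median of 20S differences minus that of 19S differences was 0.01 for treatment at day 1, -0.05 at day 3 and -0.07 at day 5, and 0.06 and -0.01 for vehicle day 3 and day 5 against day 1. A related quantity, the median log2 level of 20S genes minus that of 19S genes, was taken in each single library. Its pooled standard deviation between day 1 replicates was 0.05, which does not measure the spread of the differences above. In the low-mRNA libraries alone the median of 20S differences minus that of 19S differences was 0.10 for treatment at day 3 and -0.07 at day 5. For vehicle day 3 and day 5 against day 1 it was 0.01 and 0.19.

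As a share of nuclear protein-coding reads the 20S genes held 0.202% and 0.203% in treated and 0.214% and 0.212% in vehicle cells at day 1. At day 5 they held 0.140% in the treated and 0.158% in the vehicle library of number 1, and 0.192% and 0.186% in the low-mRNA libraries. The 19S genes held 0.305% and 0.308% in treated and 0.321% and 0.314% in vehicle cells at day 1, then 0.223% and 0.240% in the number-1 libraries and 0.229% and 0.235% in the low-mRNA libraries of day 5. On this scale both the 20S and the 19S share were lower in all 4 libraries of day 5 than in all 4 of day 1. The 20S share was lowest in the 2 number-1 libraries of day 5. The vehicle low-mRNA library of day 3 held 0.193% for 20S and 0.238% for 19S genes. Its 19S share was thus below the 0.240% of the vehicle number-1 library of day 5, so low shares were not confined to day 5.

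**Figure D4:**
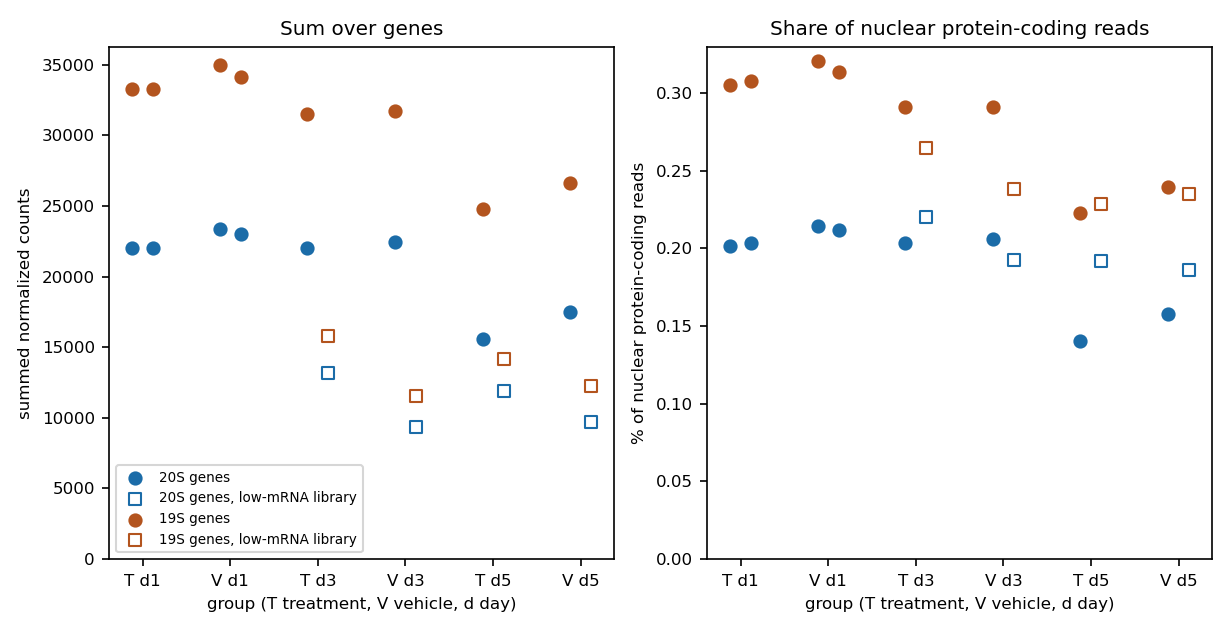
Left, normalized counts summed over the 15 tested 20S and the 21 tested 19S genes in each of the 12 libraries. Right, the same genes as a percentage of nuclear protein-coding reads. Points are single libraries and open squares mark low-mRNA libraries, which are low on the left and nearer to the others on the right.

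Within the low-mRNA libraries the members did not shift together. The log2 difference of replicate 2 minus replicate 1 had a median over the 36 members of -1.50 in treated and -2.14 in vehicle cells at day 3, and of -0.83 in treated and -1.34 in vehicle cells at day 5. Over all genes tested the medians were -1.20, -1.71, -0.92 and -1.28 in the same order. Single members spread far around these values. At day 3 in vehicle the difference ran between -3.25 for Psmc6 and 1.08 for Psma4.

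Psma4 had 3195.0 and 1439.2 normalized counts in replicates 2 and 1 of treated cells at day 3, and 2960.2 and 1397.9 in vehicle cells. The 20S sums of these 4 libraries, in the same order, were 13169, 21998, 9323 and 22420. Psma4 thus held a larger part of the 20S sum in replicate 2. At day 5 Psma4 had 1876.0 and 1352.5 in treated and 2051.5 and 1357.2 in vehicle cells. It was the one gene with an opposite-strand overlap among the 3 that were higher in replicate 2 of all 4 pairs, the others being Psma7 and Psmd7. Psmc6, an ATPase gene, had 393.7 and 1802.3 in treated and 198.4 and 1893.3 in vehicle cells at day 3, again replicate 2 first. Psmd2 had 872.2 and 3558.3 in treated and 719.2 and 3587.8 in vehicle cells at day 5.

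The order of the members was alike in the 4 pairs, with Spearman's rho between 0.82 and 0.95 over 36 genes, which share their day and the normalization of each library. Across the members, rho of the shift was between -0.23 and -0.06 with exon length and between 0.25 and 0.36 with the GC content of the transcripts. These are correlations across genes within pairs of libraries, and genes are not independent replicates. By role, the β genes had the least negative medians of replicate 2 minus replicate 1 among the 4 structural roles, at -0.998 in treated and -1.88 in vehicle cells at day 3 and at -0.50 and -0.97 at day 5.

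**Figure D5:**
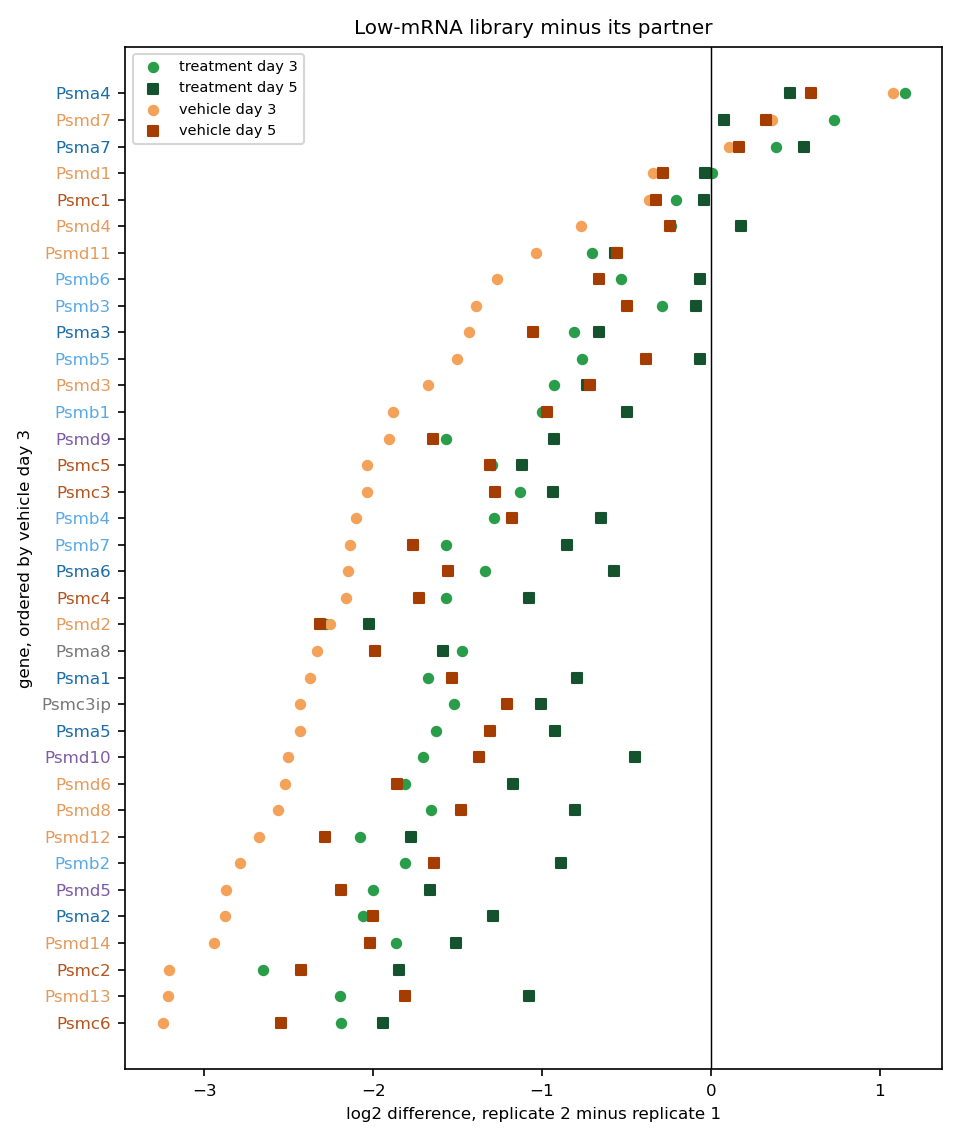
The log2 difference of the low-mRNA library (replicate 2) minus its partner (replicate 1) is plotted for the 36 tested members in the 4 groups of days 3 and 5, ordered by the vehicle group of day 3. Psma4, Psmd7 and Psma7 lie above 0 in each group and Psmc6, Psmc2 and Psmd13 are among the lowest.

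The genes around the proteasome were counted in the same 8-library fit, from lists chosen with results of these data known. Of all genes tested, 14.4% rose and 15.0% fell in vehicle at day 5, and 9.69% and 10.0% at day 3. Under treatment at day 1 the shares were 3.12% and 2.62%. The lists are small, and each count below is to be read beside these shares. The 3 immunoproteasome genes moved opposite to the constitutive members at day 5, and all 3 rose in vehicle against day 1. Psmb9, which takes the place of Psmb6, had 394.8 normalized counts at day 5 and 177.2 and 167.0 at day 1 (log2 difference 1.19, SE 0.14, limma adjusted p = 0.00480). Psmb8, which takes that of Psmb5, had 1193.5 at day 5 and 733.9 and 646.3 at day 1 (0.79, SE 0.10, adjusted p = 0.00480). Psmb10, which takes that of Psmb7, had 283.4 at day 5 and 165.1 and 172.3 at day 1 (0.75, SE 0.15, adjusted p = 0.0207).

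In the low-mRNA vehicle library of day 5 these genes had 73.5 (Psmb9), 527.0 (Psmb8) and 221.8 (Psmb10) normalized counts, so Psmb9 and Psmb8 were below day 1 there and Psmb10 above it. None of the 3 passed in vehicle at day 3, with differences of -0.26 for Psmb8, -0.04 for Psmb9 and 0.29 for Psmb10. Under treatment none passed at any day. Psmb8 had 928.9 and 876.0 in treated and 733.9 and 646.3 in vehicle cells at day 1 (0.39, adjusted p = 0.0558). Psmb9 differed by 0.36 and Psmb10 by 0.06 at day 1, and the 3 genes by 0.29 (Psmb8), 0.15 (Psmb9) and -0.19 (Psmb10) at day 3 and by 0.07, -0.14 and -0.20 at day 5.

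Of 5 assembly chaperones of the core, 4 fell in vehicle at day 5. These were Psmg1, Psmg2 and Psmg3, by 0.46, 0.50 and 0.52 log2 units, and Pomp, the maturation factor of the β ring, by 0.26 (limma adjusted p = 0.0382). Pomp differed by 0.04 in vehicle at day 3 and, under treatment, by -0.12, -0.11 and -0.28 at days 1, 3 and 5, and none of these passed. Of 5 activators and inhibitors of the core 2 fell in vehicle at day 5, Psme4 by 0.47 and Psme3 by 0.33, while the interferon-inducible activator genes Psme1 and Psme2 differed by 0.06 and 0.00. Under treatment at day 1 Psme2 differed by 0.24 (adjusted p = 0.0681) and Psme1 by 0.18. The cap genes outside the name pattern, Adrm1 and Sem1, did not pass in any comparison.

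Among 12 factors that bind the proteasome 8 fell and 2 rose in vehicle at day 5. The falls included the shuttle gene Rad23b by 0.58, Ecpas by 0.50 and the deubiquitinase gene Usp14 by 0.39 log2 units. Zfand2a and Zfand5, which encode zinc finger proteins that bind the particle and are induced by stress, rose by 0.62 and 0.45. With the low-mRNA library included (12-library fit) these 2 differences were -0.35 and -0.08. The same 2 genes were the ones of the list that rose under treatment at day 1. Zfand5 had 1734.1 and 1814.5 normalized counts in treated and 1119.4 and 1227.1 in vehicle cells (0.60, SE 0.06, limma adjusted p = 0.0149), and Zfand2a 543.1 and 492.8 in treated and 402.9 and 370.7 in vehicle cells (0.42, SE 0.08, adjusted p = 0.0495). In vehicle at day 3 Zfand5 rose by 0.98 and Txnl1, a thioredoxin-like protein of the cap, fell by 0.33.

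The transcription factor gene Nfe2l1 fell at day 3 and rose at day 5 in vehicle. It had 1722.9 normalized counts at day 3 (log2 difference -0.64, SE 0.08, limma adjusted p = 0.00619) and 3483.8 at day 5 (0.37, SE 0.08, adjusted p = 0.0212), against 2816.7 and 2575.4 at day 1. Under treatment it differed by 0.19, 0.02 and 0.11 at days 1, 3 and 5 and did not pass. Of 11 genes of this control list 2 rose and 3 fell in vehicle at day 3. The rises there were Ngly1, which encodes the enzyme that removes sugars from NRF1, by 0.53 and Nfe2l2 by 0.28 log2 units, and besides Nfe2l1 the small Maf genes Maff and Mafg, whose products pair with NRF1 and NRF2, fell by 1.04 and 0.47. Of the same genes 5 rose and 1 fell in vehicle at day 5. Besides Nfe2l1 the rises at day 5 were Ngly1 by 0.80, Nfe2l2 by 0.69, the ubiquitin ligase gene Syvn1 by 0.46 and Ddi2, the protease that cleaves NRF1, by 0.38 log2 units. Vcp, the unfolding ATPase, fell by 0.27. In the low-mRNA vehicle library of day 5 Nfe2l1 had 863.3 normalized counts. With that library included (12-library fit) the day 5 differences were -0.63 (Nfe2l1), -0.43 (Ngly1), -0.18 (Nfe2l2), -0.49 (Syvn1), -0.36 (Ddi2) and -0.63 (Vcp). The rises at day 5 thus rest on the number-1 library.

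Of 6 ubiquitin and ubiquitin-activating genes 1 rose and 1 fell in vehicle at day 5. Ubb rose by 0.42 (limma adjusted p = 0.0116), with 12171 normalized counts at day 5 and 9367 and 8890 at day 1. Uba1, the activating enzyme gene, fell by 0.51 (adjusted p = 0.00672), with 2953.8 at day 5 and 4367.0 and 4029.6 at day 1. With the low-mRNA library included (12-library fit) the day 5 differences were -0.71 for Ubb and -1.68 for Uba1. In vehicle at day 3 Rps27a, which encodes ubiquitin fused to a ribosomal protein, rose by 0.46, and as it has near-identical copies in the genome its count is uncertain. No gene of this list was called for treatment at day 1, 3 or 5 in the 8-library fit.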

How the data were processed

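Gene expression was measured by RNA sequencing of total RNA (TruSeq RNA kit, per the labels' protocols) in 12 libraries, grouped by their titles. TopHat2, SAMtools and DESeq2 were among the authors' tools and mm9 was their build, per the submitters' processing notes, and neither the counting step nor its strand setting is given in the sources used here. In the 1 deposited table each value proved to be log2 of a normalized count plus 8. Of 24757 rows, 993 repeated rows of equal values were dropped, which left 23764 genes, 23315 of them named from the reference. Without the offset, 100% of the values low enough for the printed decimals to resolve 1 read were whole multiples of 1 step per library within 0.02 reads, so reads were recovered. Group means were fitted by limma (3.58.1, R 4.3.3, trend) on log2(normalized count + 1), a scale that understates changes of low genes, over 14715 genes with a mean of at least 10 in at least 1 group, with Benjamini-Hochberg adjustment over these. It was run on 12 libraries and on the 8 in which nuclear protein-coding genes held over 60% of the reads, and tested on simulated data. The members, lists and the choice of libraries were made with earlier results of these data known. Named were 6 genes in every comparison (Psmb5, Psmb6, Psmb7, Psmc4, Psmd4 and Psmd14), the 3 highest and 3 lowest members with at least 50 normalized counts, called members with the smallest p up to 4 per direction and subcomplex, members that are no constitutive subunit, and companion genes with the smallest p, plus Psmb8, Psmb9, Psmb10, Pomp and Nfe2l1 always, and 1 companion gene that the rule takes is not reported here. Levels per kilobase use the exons of a later annotation than the authors' build. Exons of 10 members overlap another gene in that annotation, 9 of them on the opposite strand, and several members have processed pseudogenes that may share reads. Python 3.11.15, pandas 2.3.3, numpy 2.4.6 and matplotlib 3.10.9 were used.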

Additional observations from a re-analysis of the deposited data

Results flagged for a closer look

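Psmd1, a scaffold subunit of the cap, was flagged because every treated library lay below every vehicle library at day 1 and above every one at day 3. It had 3273.2 and 3428.8 normalized counts in treated and 3509.6 and 3586.1 in vehicle cells at day 1, then 3169.4 and 3185.6 in treated and 3150.5 and 2488.4 in vehicle cells at day 3. The second value of each arm at day 3 is from a low-mRNA library, with 47.0% (treated) and 38.1% (vehicle) nuclear protein-coding reads. The number-1 pair of day 3 differed by only 0.0086 log2 units. Exons of Psmd1 overlap Htr2b on the opposite strand and Gm21972 on the same strand. In the 8-library limma fit the treatment effect at day 3 minus that at day 1 was 0.0913 log2 units (SE 0.08, adjusted p = 0.680), which did not pass, and in the 12-library fit it was 0.27 (SE 0.53, adjusted p = 1.00). The opposite order over the 4 libraries of each day was itself not tested.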

How the results depend on the processing

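Over all 12 libraries the count of called members stayed at 0 in 5 comparisons under each alternative except those with a day-wise term marking low-mRNA libraries. In vehicle at day 5 that term alone called 2 members lower, and with equal nuclear protein-coding totals added it called 12 lower. These terms need all 12 libraries, and their counts are also set against the 8-library ones here, which moved more. For treatment at day 1 (3 members) the count was 0 without any 1 of the day 1 libraries, 0 with no filter on low values, 1 with quantile normalization, 7 with limma-voom, 0 with the low-mRNA term and 0 with that term and equal nuclear protein-coding totals. For treatment at day 5 (0 members) it was 2 with no filter, 1 with a pseudocount of 5 and 1 with limma-voom. For vehicle day 3 against day 1 (3 members) it ran between 0 and 1 when a day 1 library was left out, and was 0 with no filter, 7 with limma-voom, 0 with the low-mRNA term, 0 with that term and equal totals, and 1 with only the groups compared. For vehicle day 5 against day 1 (28 members) it was 4 and 5 without 1 vehicle library of day 1 and 21 without 1 treated one, 14 with no filter, 2 with the low-mRNA term and 12 with that term and equal totals. The treatment effect of day 5 minus day 1 (0 members) gave 1 with limma-voom. No call reversed. The cause was not tested, apart from the fewer residual degrees of freedom that leaving out a library gives by construction.

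The median of 20S minus that of 19S differences was 0.10 in the low-mRNA pair for treatment at day 3 (main -0.05) and -0.07 at day 5 (main -0.07), 0.01 in the low-mRNA library for vehicle at day 3 (main 0.06), 0.19 in the low-mRNA library for vehicle at day 5 (main -0.01), and ran between -0.0068 and 0.0619 for vehicle at day 5 with 1 library left out. A replicate block in the 12-library fit called 0 members in each comparison. Deviations of same-numbered libraries correlated at 0.07 at day 1 and at 0.90 at days 3 and 5, so the numbers were not taken as a pairing. The term with equal totals was chosen after seeing the data. Calls at days 3 and 5 rest on 1 library per group and on the spread of day 1.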
